A study of Arabidopsis thaliana with 18 samples.

Results

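The step from 4 h to 8 h was examined in whole rosettes of unmodified Arabidopsis thaliana, accession Col-0. It was taken as the 3 arrays labelled 8 h against the 3 arrays labelled 4 h, which are 6 of the 18 arrays of the study. All plants were 5 to 6 weeks old, every sample pooled 15 rosettes frozen in the growth chamber, and no mutation, transgene or treatment is named for any group. The study sampled 6 times in 3 separately grown sets of plants, and a set is called a series by its replicate letter (A, B or C), with 1 array at 4 h and 1 at 8 h. The labels do not say when the light came on, so the times are given as labelled and not as morning or midday.

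In leaves, many transcripts rise and fall over the day under the control of the circadian clock, of light and of the sugar made by photosynthesis. Clock proteins repress or activate the genes of other clock proteins, and through them genes of cold tolerance, starch turnover and growth. Starch is laid down in chloroplasts in the light and broken down to maltose and glucose in the dark, while sugars are moved between cells and into vacuoles by dedicated transporters.

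Each probe set had 1 linear signal intensity on every array, and differences are given as log2 of 8 h over 4 h after adding an offset of 1.1 to each signal. The median signal of the 6 arrays lay between 32.8 and 39.8, and the number of arrays limits the precision of every mean. In whole rosettes, more RNA of a gene per cell and more cells of the type that makes it cannot be told apart. Leaf markers of photosynthesis were bright on all 6 arrays. RCA, the activase of Rubisco, had signals between 2942.8 and 7380.1. Of the 2 measured root markers, PYK10 had signals between 127.4 and 266.1 and EXPA7 between 2.6 and 13.1, and neither was called.

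The array labelled 4 h B stood apart from the other 4 h arrays. Its log2 signals correlated on average by 0.945 with both other 4 h arrays and by 0.963 with the 16 h arrays labelled A and C. The array labelled 16 h B showed the mirror image, with 0.967 against the 4 h arrays and 0.946 against the 16 h arrays of the other series. The array labelled 8 h B was closer to the 12 h arrays of the other series (0.966) than to their 8 h arrays (0.957). The array 8 h C showed the same order by a smaller margin (0.955 and 0.953), and 8 h A was level (0.9601 and 0.9605, means that include series B). The ubiquitin control's 3'/5' signal ratio, a sign of RNA quality, was 1.61, 1.60 and 2.73 at 4 h (A, B, C) and 1.77, 1.52 and 2.77 at 8 h, so series C differed from the others at both times and the array labelled 4 h B did not stand out. The cause of the likeness to 16 h was not tested, and both fits, with and without the array labelled 4 h B, are used below. Both fits keep the array labelled 8 h B, and the cause of its likeness to 12 h was not tested either.

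The change from 4 h to 8 h was much alike in series A and C and less so in series B. Over the 11373 probe sets above the median brightness, the differences between 8 h and 4 h correlated by 0.757 between series A and C. The same value was 0.217 between A and B and 0.157 between B and C, which describes these arrays and treats no gene as a replicate. Of these probe sets, 265 were higher by at least 1 on the log2 scale in series A, 260 in B and 285 in C, and 319, 256 and 329 were lower by as much, so large decreases were fewer in series B. The plot of series against series shows both relations.

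**Figure D1:**
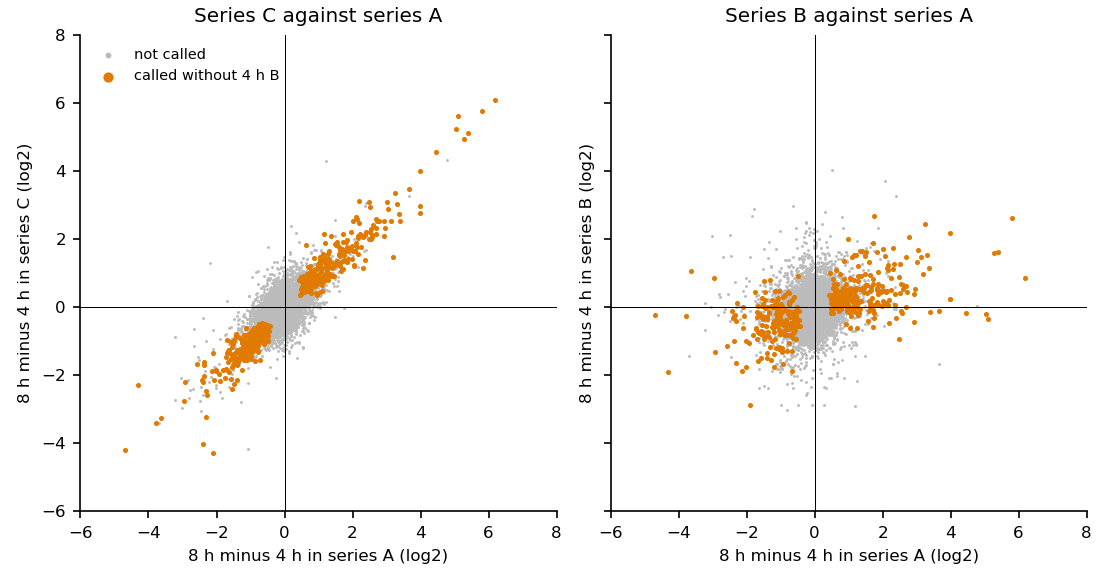
Difference between 8 h and 4 h (log2) of each probe set above the median brightness in series C (left) and series B (right) against that in series A, with probe sets called without the array labelled 4 h B in orange. The points follow the diagonal in the left panel (r = 0.757) and spread around the horizontal line in the right panel (r = 0.217). The orange points were chosen mainly through series A and C, which places them along the diagonal on the left. The array 8 h B took part in that choice, so the right panel is not free of it.

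With all arrays, 179 of 22746 probe sets changed between the times (0.787%), 87 higher (0.382%) and 92 lower (0.404%) at 8 h, by limma at an adjusted p below 0.05. Without the array labelled 4 h B, 495 did (2.18%), 256 higher (1.13%) and 239 lower (1.05%). Of these calls, 157 were made in both fits, 22 only with all arrays and 338 only without the array labelled 4 h B, and none of the 157 changed direction. All 179 moved one way in every series, and in 167 the 3 arrays of 8 h did not overlap with the 3 of 4 h. Over all probe sets, 3.72% had every 8 h array above and 5.93% every 8 h array below the 4 h arrays.

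The count rests on series A and C. Without series A no probe set passed the limma test (1455 at an unadjusted p below 0.05), and the same held without series C (1540). Leaving out single arrays gave 23 calls without 4 h A, 53 without 4 h C, 42 without 8 h A, 177 without 8 h B (109 of them among the 179) and 23 without 8 h C. In all, 20 calls passed without each of the 6 arrays in turn, 8 higher and 12 lower, and of the 19 genes with a symbol called with all arrays only COR15B, SWEET2 and UGT74D1 were among them. After the arrays were set to equal medians, 107 probe sets were higher and 57 lower with all arrays, and 298 higher and 191 lower without the array labelled 4 h B. That scaling moved the median of all differences from -0.06 to 0.01.

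Series B took no part in the calls made in series A and C alone, so its direction can be set beside theirs. It cannot check them as a change from 4 h to 8 h. Its 4 h array was more like the 16 h than the 4 h arrays of the other series, and its 8 h array more like their 12 h than their 8 h arrays. Of 580 probe sets called higher in series A and C alone (2.55%), 388 were also higher at 8 h in series B, or 66.9% against 39.0% of all probe sets. Their median difference was 0.99 in series A, 0.95 in series C and 0.21 in series B. Of 691 called lower (3.04%), 417 were lower in series B, or 60.3% against 59.0% of all. Here the medians were -0.98, -0.99 and -0.15, so the share of decreases in series B was near that of all probe sets.

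Of 5 measured genes of the cold and dehydration list, 2 rose in both fits, against 0.382% and 1.13% of all probe sets. The list holds 25 genes and was written with earlier results of these data known, so its share is no test. COR15A and COR15B, neighbouring genes for proteins that protect chloroplast membranes during freezing, rose in all 3 series. COR15B had signals of 180.8, 591.2 and 333.8 at 4 h and of 1592.9, 1630.4 and 1931.7 at 8 h, given in the order A, B, C here and for every gene. Every 8 h array lay far above every 4 h array, and the 4 h array of series B was the highest of its time. The difference was 2.37 ± 0.30 (SE, limma adjusted p = 0.00289) with all arrays and 2.74 ± 0.27 (adjusted p = 0.00166) without the array labelled 4 h B. COR15A went from 813.0, 994.6 and 907.4 to 2336.6, 3036.4 and 3205.8, a difference of 1.65 ± 0.29 (limma adjusted p = 0.019) and of 1.62 without the array labelled 4 h B (adjusted p = 0.0249). Its 3 series moved alike, with differences of 1.52, 1.61 and 1.82, yet its adjusted p was between 0.0249 and 0.127 when 1 array was left out. The probe sets of these close copies may share signal, which was not tested.

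The other 3 measured genes of the cold and dehydration list were not called in either fit. COR47, a dehydrin, had 286.6, 282.2 and 424.9 at 4 h and 790.7, 488.4 and 1094.9 at 8 h, with no overlap and differences of 1.46, 0.79 and 1.36 by series (limma adjusted p = 0.159, and 0.199 without the array labelled 4 h B). LTI30, another dehydrin, had 69.6, 49.2 and 116.2 and then 266.8, 131.7 and 344.4 (1.63 ± 0.47, adjusted p = 0.167, and 1.39, adjusted p = 0.233, without that array). At 12 h COR47 had 392.6, 1089.7 and 501.9 and LTI30 had 107.9, 386.5 and 101.2. In both dehydrins series B was thus the highest at 12 h and the lowest at 8 h. In series A and C alone both were called, COR47 with 1.41 (limma adjusted p = 1e-04) and LTI30 with 1.74 (adjusted p = 0.000561). STZ was not called there (-0.75, adjusted p = 0.548). STZ, a zinc finger repressor of stress responses, gave values of -0.64 and, without that array, -0.20 (adjusted p = 0.744 and 0.933). RD2, a dehydration-responsive gene outside the list, rose from 365.6, 442.3 and 413.3 to 764.8, 529.6 and 850.8 (0.79 ± 0.17, limma adjusted p = 0.0433). Its smallest step was that of series B, and without the array labelled 4 h B the difference was 0.97.

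Of 4 measured genes of starch breakdown, 1 rose with all arrays and 2 without the array labelled 4 h B, against 0.382% and 1.13% of all probe sets. That list holds 31 genes and was also written with earlier results of these data known. DPE1, the plastid enzyme that rearranges maltotriose, had signals of 111.5, 289.9 and 138.3 at 4 h and of 447.6, 442.3 and 481.8 at 8 h. The 3 arrays of 8 h were nearly equal, and at 4 h the array of series B stood far above the others. The difference was 1.46 ± 0.28 (limma adjusted p = 0.0311), and 1.92 ± 0.20 (adjusted p = 0.00166) without that array. Leaving out any 1 of the other 5 arrays took the adjusted p of DPE1 to between 0.0573 and 0.161. PWD (AT5G26570), the phosphoglucan water dikinase that prepares the granule surface for breakdown, had 130.8, 595.1 and 168.7 and then 619.3, 837.0 and 745.4. It passed only without the array labelled 4 h B (2.33 ± 0.38, limma adjusted p = 0.00947, against 0.183 with all arrays). AMY1, an alpha-amylase, and a second gene with the symbol PWD (AT4G24450) gave 0.16 and 0.10. In starch synthesis none of 3 measured genes was called: APL3 and APL4, subunits of ADP-glucose pyrophosphorylase, gave 0.13 and 0.32 (-0.12 and 0.19 without the array labelled 4 h B), and the branching enzyme SBE2.2 gave -0.10 (-0.29).

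**Figure D2:**
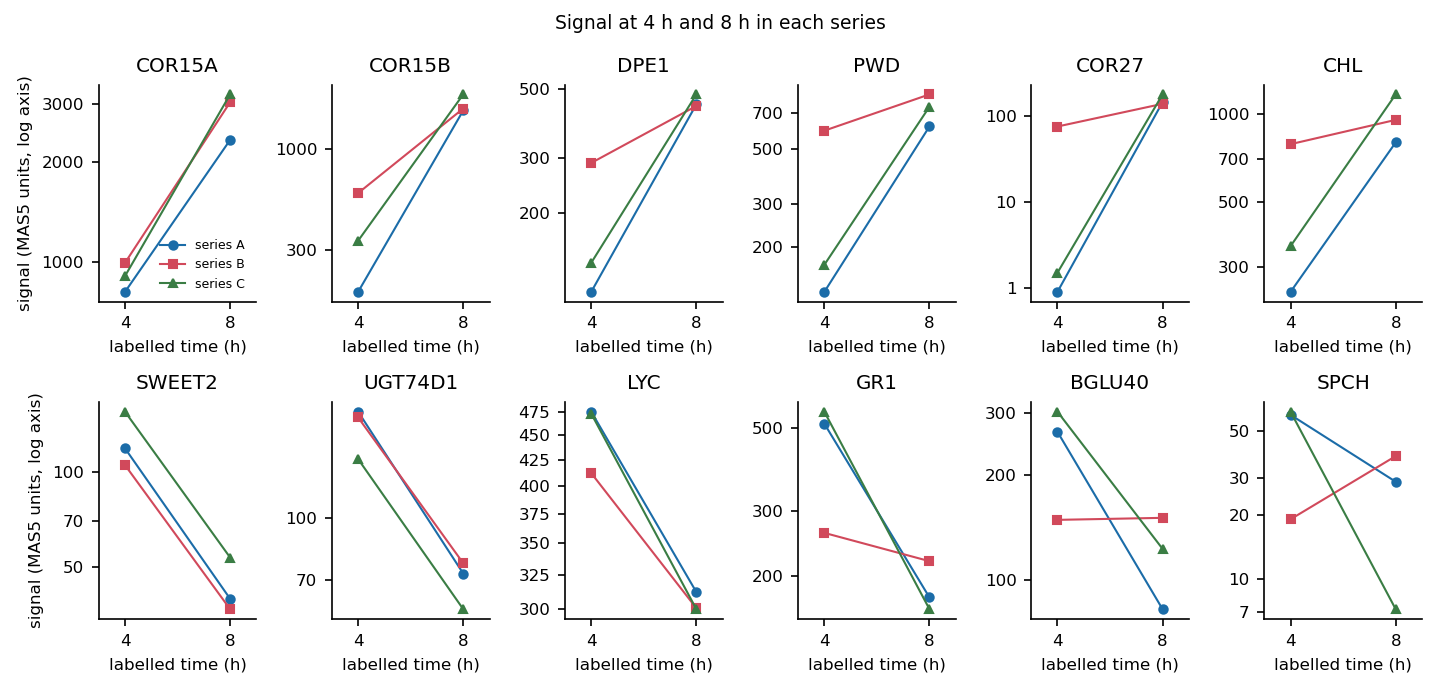
Signal (log axis, a scale of its own in each panel) of 12 genes at 4 h and 8 h, with 1 line for each series. Upper row, genes higher at 8 h; lower row, genes lower at 8 h; the series B line is flat or nearly so for PWD, CHL, GR1 and BGLU40, opposite for SPCH, and runs with the others for COR15A, SWEET2 and UGT74D1.

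Among 20 measured genes of sucrose synthesis and sugar transport, SWEET2 was the only one called with all arrays, against 0.787% of all probe sets, and 3 were called without the array labelled 4 h B, against 2.18%. SWEET2, a sugar transporter of the vacuole membrane, fell from 119.4, 105.6 and 156.2 to 39.6, 36.7 and 53.6. All 3 series fell by almost the same amount (-1.57, -1.50 and -1.52), and the fitted difference of -1.53 ± 0.14 had the lowest adjusted p of the named genes (limma, 0.000998). The ratio of mean signals was 0.341, and without the array labelled 4 h B the difference was -1.56. Without the array labelled 4 h B, TMT1, a sugar carrier into the vacuole, was called as well, with 67.2, 241.1 and 73.8 at 4 h and 140.2, 157.5 and 194.5 at 8 h (1.26 ± 0.28, limma adjusted p = 0.0341). The series B arrays ran the other way, and with all arrays its difference was 0.61. SAG29, also known as SWEET15, was dim, with 22.8, 1.0 and 33.1 and then 3.3, 1.3 and 3.2 (-3.12 ± 0.66 without that array, adjusted p = 0.0268). The sucrose phosphate synthase gene ATSPS4F had 287.9, 477.2 and 250.3 and then 107.2, 294.0 and 123.4, and was not called (-1.04 ± 0.40, adjusted p = 0.319, and -0.75 without that array). In series A and C alone ATSPS4F was called lower (-1.21, limma adjusted p = 0.00338). SFP1, a sugar porter outside the list, fell from 307.4, 337.6 and 193.5 to 207.9, 102.0 and 121.7 (-0.98 ± 0.20, limma adjusted p = 0.0394), but had an adjusted p of 0.0712 without the array labelled 4 h B.

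Both measured genes of the evening clock list were far higher at 8 h in series A and C, and neither passed with all arrays. COR27, a cold-regulated nuclear protein that acts in the clock, had signals of 0.9, 74.8 and 1.5 at 4 h and of 143.7, 137.2 and 176.6 at 8 h. At 4 h series A and C were at the floor of the scale, while series B already stood well above it. The difference was 4.38 ± 1.35 (limma adjusted p = 0.205) with all arrays and 6.43 ± 1.05 (adjusted p = 0.00934) without the array labelled 4 h B, a size that depends on the offset. At 16 h the signals were 100.2, 1.1 and 87.7, so the series B array was at the floor there and not at 4 h. GI, a large clock protein that links the clock to flowering, had 70.0, 8.2 and 112.6 and then 297.6, 120.7 and 401.3. Its groups did not overlap and its step was larger in series B than in A or C, and it was not called with all arrays (2.54 ± 0.98, limma adjusted p = 0.331) or without the array labelled 4 h B (1.27, adjusted p = 0.569). At 12 h GI had 166.8, 411.1 and 74.8, so series B was the highest there and the lowest at 8 h. HYH, a bZIP factor of light signalling, had 69.5, 37.7 and 56.1 and then 14.6, 35.0 and 12.7. Its differences were -1.44 and, without the array labelled 4 h B, -1.67 (limma adjusted p = 0.148 and 0.0771). At 12 h HYH had 41.4, 16.9 and 44.9, so series B was the lowest there and the highest at 8 h. In series A and C alone HYH was called lower (-2.11, limma adjusted p = 0.000177), while GI was not called (1.95, adjusted p = 0.0754).

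Of the other genes with a symbol that rose, the following are described without a list behind them. CCL, listed as CCR-like, had 677.8, 1938.7 and 869.3 and then 2643.8, 2712.7 and 4031.1 (2.18 ± 0.38 without the array labelled 4 h B, limma adjusted p = 0.0126). CHL, the chloroplastic lipocalin that protects thylakoid lipids, had 245.6, 786.0 and 352.1 and then 796.9, 951.7 and 1163.2 (1.80 ± 0.30 in the same fit, adjusted p = 0.0107). In both genes the 4 h array of series B was the highest of its time, and with all arrays the adjusted p was 0.171 and 0.204. THIC, which makes the pyrimidine part of thiamine, had 655.9, 2172.8 and 796.4 and then 1447.6, 2429.0 and 2043.7. The groups overlapped through series B alone, and the difference was 0.89 (limma adjusted p = 0.447) with all arrays and 1.51 (adjusted p = 0.0288) without that array. ALDH6B2, an aldehyde dehydrogenase of valine breakdown, had 180.0, 316.1 and 161.2 and then 408.2, 387.9 and 403.9, and the 3 arrays of 8 h again lay close together. Its difference was 1.27 ± 0.20 (limma adjusted p = 0.00828) without the array labelled 4 h B and 0.93 ± 0.24 (adjusted p = 0.116) with all arrays. PIFI, a chloroplast protein named for a rise of chlorophyll fluorescence after light, passed in both fits, from 995.4, 1141.8 and 1192.7 to 1893.9, 1630.8 and 1918.9 (0.71 ± 0.13, limma adjusted p = 0.0245, and 0.78 without that array).

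WLIM1 and WLIM2a, which bind and bundle actin filaments, rose with all arrays by 1.03 ± 0.21 and 1.18 ± 0.24 (limma adjusted p = 0.037 and 0.0394), as did the protease inhibitor SERPIN1 by 0.56 ± 0.11. Without the array labelled 4 h B all 3 were again called (limma adjusted p = 0.00216, 0.0262 and 0.0219). WLIM1 had 120.0, 206.4 and 209.0 at 4 h and 324.8, 284.4 and 478.1 at 8 h. Called only without the array labelled 4 h B were LCR69 of the defensin family (2.29), the carboxypeptidase SCPL49 (2.23), the pyruvate decarboxylase PDC2 (1.86), the glycosyltransferase UGT85A5 (1.67) and the organelle RNA editing factor OTP81 (1.59). The same held for the autophagy gene ATG8D (1.37), the methionine aminopeptidase MAP1C (1.25), the gene with the symbol AGL26 (1.06), the tubulin TUB9 (limma adjusted p = 0.0228) and the plastid division gene FTSZ2-1 (0.59). AGL26 has a second probe set, which gave -0.11 and was not called. ATG8D was the only one of 10 measured autophagy genes to be called, against 2.18% of all probe sets in that fit. Its series B difference was -0.04. TUB9 and the tubulin TUA1 went in opposite directions, as TUA1 fell by 0.75 ± 0.15 with all arrays (limma adjusted p = 0.0394, and 0.0712 without the array labelled 4 h B).

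**Figure D3:**
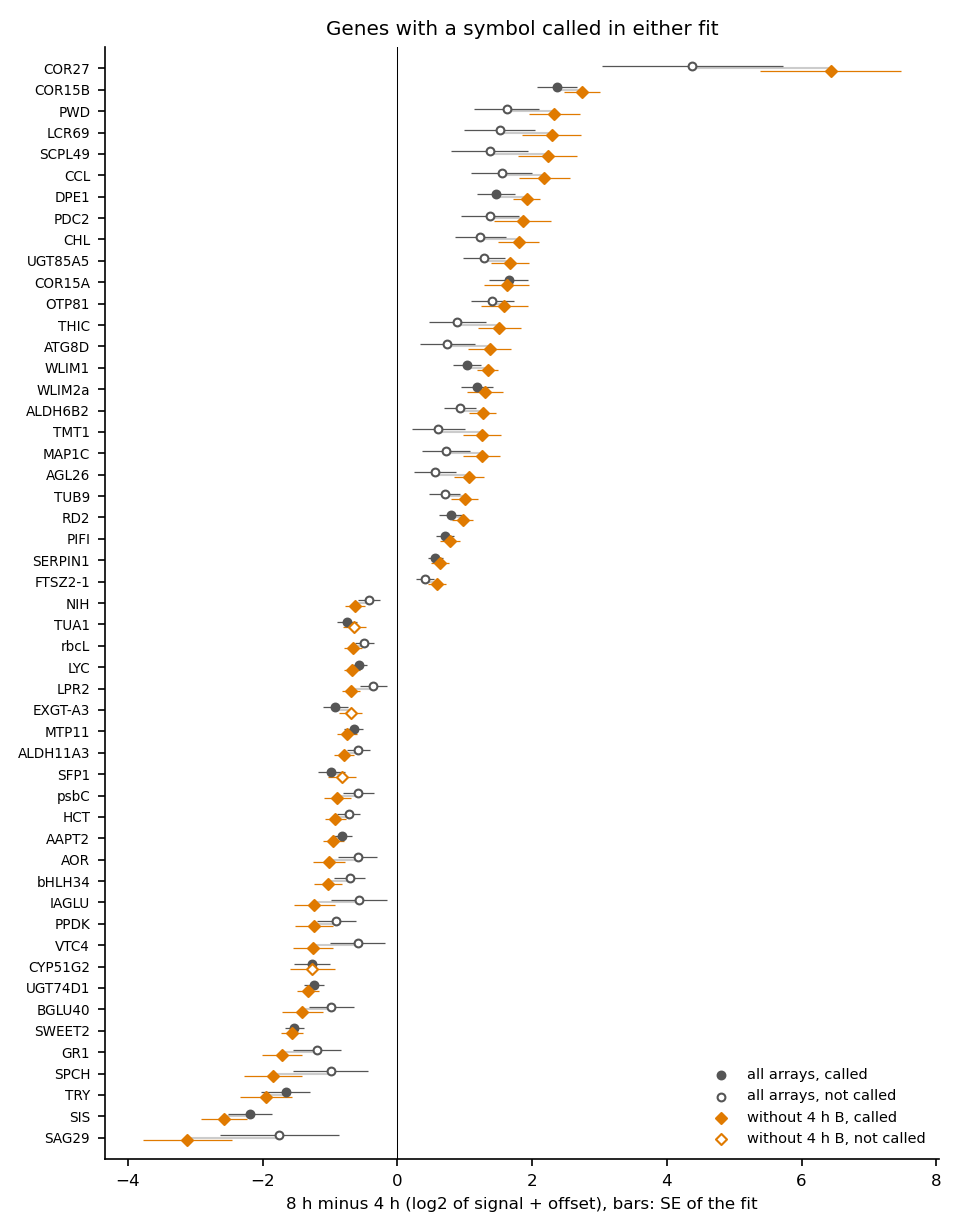
Difference between 8 h and 4 h (log2, points, with bars of 1 SE from the fit) of the 51 genes with a symbol called in either fit, with all arrays in grey and without the array labelled 4 h B in orange; filled symbols passed the test. With all arrays 19 passed and without that array 47, with 15 in common, and every gene keeps its side of 0.

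Several decreases beside SWEET2 held in both fits. UGT74D1, a glycosyltransferase of auxins, fell from 183.3, 177.4 and 139.9 to 72.8, 77.2 and 59.4, again by a like amount in each series (-1.24 ± 0.15, limma adjusted p = 0.00252, and -1.33 without the array labelled 4 h B). TRY, a small MYB protein that represses trichome formation, fell from 83.9, 40.9 and 52.0 to 15.5, 19.9 and 16.1. Its difference of -1.66 ± 0.36 was close to the threshold (limma adjusted p = 0.0492), and the adjusted p was 0.0706 with equal array medians and 0.0201 without the array labelled 4 h B. LYC, a lycopene cyclase of carotenoid synthesis, fell from 475.6, 412.2 and 473.5 to 312.4, 300.9 and 300.2 (-0.57 ± 0.12, limma adjusted p = 0.0393, and 0.0723 with equal medians). The groups did not overlap for either gene. AAPT2 of phospholipid synthesis fell by 0.82 ± 0.15, the manganese transporter MTP11 fell by 0.65 ± 0.14 and the dim gene SIS, named for induction by salt, fell by 2.19 ± 0.33, from 23.2, 11.1 and 30.0 to 3.7, 3.4 and 3.4. Without the array labelled 4 h B these differences were -0.95, -0.75 and -2.57. With equal medians the adjusted p was 0.0519 for AAPT2 and 0.111 for MTP11, and with quantile normalization 0.0508 for MTP11 and for TRY.

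More enzymes joined the decreases without the array labelled 4 h B. GR1, a glutathione reductase, had 515.0, 261.8 and 554.6 at 4 h and 175.5, 219.7 and 163.2 at 8 h. Series A and C went from high to low, while series B was low at both times (-1.71 ± 0.30, limma adjusted p = 0.0127, against 0.198 with all arrays). At 16 h GR1 stood at 170.4, 576.8 and 171.4, so there series B alone was high. HCT, an acyltransferase of lignin precursor synthesis, had 887.1, 605.0 and 902.6 and then 494.6, 430.8 and 510.6 (-0.92 ± 0.16, adjusted p = 0.0127), and was 1 of 5 measured phenylpropanoid genes. BGLU40, a beta-glucosidase and 1 of 22 measured in its family, had 266.0, 148.9 and 303.6 and then 82.7, 150.9 and 123.0 (-1.41 ± 0.30, adjusted p = 0.0283). In BGLU40 series B hardly moved. Of all probe sets, 1.05% were called lower in this fit. PPDK, which regenerates phosphoenolpyruvate, gave -1.24, VTC4, a phosphatase of ascorbate synthesis, gave -1.25, the chloroplast alkenal reductase AOR gave -1.01 and ALDH11A3, a cytosolic glyceraldehyde phosphate dehydrogenase, gave -0.79 (limma adjusted p between 0.0187 and 0.0473).

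SPCH, the bHLH factor that starts the stomatal lineage, was among the genes in which series B ran the other way. Its signals were 59.3, 19.1 and 61.4 at 4 h and 28.7, 37.9 and 7.2 at 8 h. Series A and C fell by 1.02 and by 2.91 while series B differed by 0.95 in the other direction, and the difference was -0.99 (limma adjusted p = 0.551) with all arrays and -1.85 ± 0.43 (adjusted p = 0.0436) without the array labelled 4 h B. TRY and SPCH carry consecutive locus numbers, AT5G53200 and AT5G53210. FMA, a measured guard cell gene that acts later in the same lineage, gave -0.08 (adjusted p = 0.929).

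Many of the largest differences belonged to genes known here by locus tag alone. Among calls with 1 named gene and a mean signal of at least 37.1 at the higher time, the 12 largest increases with all arrays ran from 3.73 for AT1G11210 to 1.68 for AT4G17100. AT1G56300 had 41.8, 62.2 and 81.7 at 4 h and 673.5, 282.9 and 559.2 at 8 h (2.97 ± 0.44, limma adjusted p = 0.00751). AT4G30650 had 243.2, 723.6 and 402.2 and then 2408.7, 2106.1 and 3281.0 (2.62 ± 0.39, adjusted p = 0.00862), and AT2G21130 had 47.4, 153.2 and 54.1 and then 399.3, 491.5 and 403.5 (2.53 ± 0.40, adjusted p = 0.0112). In the last 2 the array labelled 4 h B was the highest of its time, as in COR15B and DPE1. The others were AT1G16850 (3.13), AT4G32340 (2.16), AT1G19960 (1.93), AT1G48330 (1.90), AT4G14270 (1.79) and AT4G30660 (1.73), beside COR15B.

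By the same rule, which leaves out dim genes such as SIS and CYP51G2, the 12 largest decreases with all arrays ran from -2.14 for AT1G64500 to -1.09 for AT1G21050. AT1G64500 had 70.2, 75.9 and 67.0 and then 13.2, 23.5 and 11.2 (limma adjusted p = 0.032), and AT5G13770 had 408.5, 377.4 and 589.8 and then 161.8, 202.9 and 200.6 (-1.26 ± 0.14, adjusted p = 0.00252). In both, series B fell with the others. The list further held AT3G15310 (-2.04), AT3G27350 (-1.52), AT2G19650 (-1.50), AT2G04795 (-1.44), AT1G33110 (-1.32) and AT1G17360 (-1.24), beside SWEET2, UGT74D1 and TRY. Of all 24 genes, AT2G04795 alone had an adjusted p above 0.05 without the array labelled 4 h B (0.0756).

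By the same rule without the array labelled 4 h B, the largest increases were those of COR27 (6.43), AT4G33980 (5.88), AT1G07050 (5.40) and AT1G17665 (4.99). AT1G07050 had 10.0, 130.1 and 16.9 and then 468.4, 404.0 and 623.5 (limma adjusted p = 0.0189). Under that rule, which leaves out the dim gene SAG29 (-3.12), the largest decreases were those of AT2G15020 (-4.88), AT2G41250 (-3.08) and AT5G54130 (-2.69). AT2G15020 had 121.5, 1.3 and 36.0 and then 1.0, 4.2 and 1.8 (adjusted p = 0.0434), so it was high at 4 h in series A and C alone, and at 16 h it had 0.6, 101.6 and 1.5. A second probe set of AT5G54130 gave -1.88. AT3G21670, listed as the transporter NPF6.4 of the nitrate and peptide family, had 802.0, 352.2 and 651.1 and then 305.8, 273.9 and 144.9 (-1.73 ± 0.41, adjusted p = 0.0459). Among genes bright enough for the rule, the largest increases against which series B ran were AT1G17665, AT3G59350 (2.75), AT1G26665 (2.54) and AT2G25730 (2.49), and the largest such decreases AT2G15020, AT2G41040 (-1.91), SPCH and AT5G22390 (-1.61). In AT1G26665 the signals were 30.4, 187.7 and 26.2 and then 165.3, 149.9 and 125.6, so the 4 h array of series B exceeded all 3 of 8 h.

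Over the full course, genes higher at 8 h than at 4 h mostly had their highest mean at 8 h or 12 h. Of the 87 higher calls with all arrays this was 8 h for 62 and 12 h for 25. Of the 92 lower calls it was 0 h for 80, 4 h for 7 and 20 h for 5. Without the array labelled 4 h B, with the means of series A and C, 97 of 239 lower calls had their highest mean at 4 h and 138 at 0 h. Genes such as SAG29, low at 0 h and high at 4 h in series A and C, were therefore among the calls of the second fit, while genes such as SWEET2 were higher still at 0 h, with 293.8, 343.3 and 587.8.

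**Figure D4:**
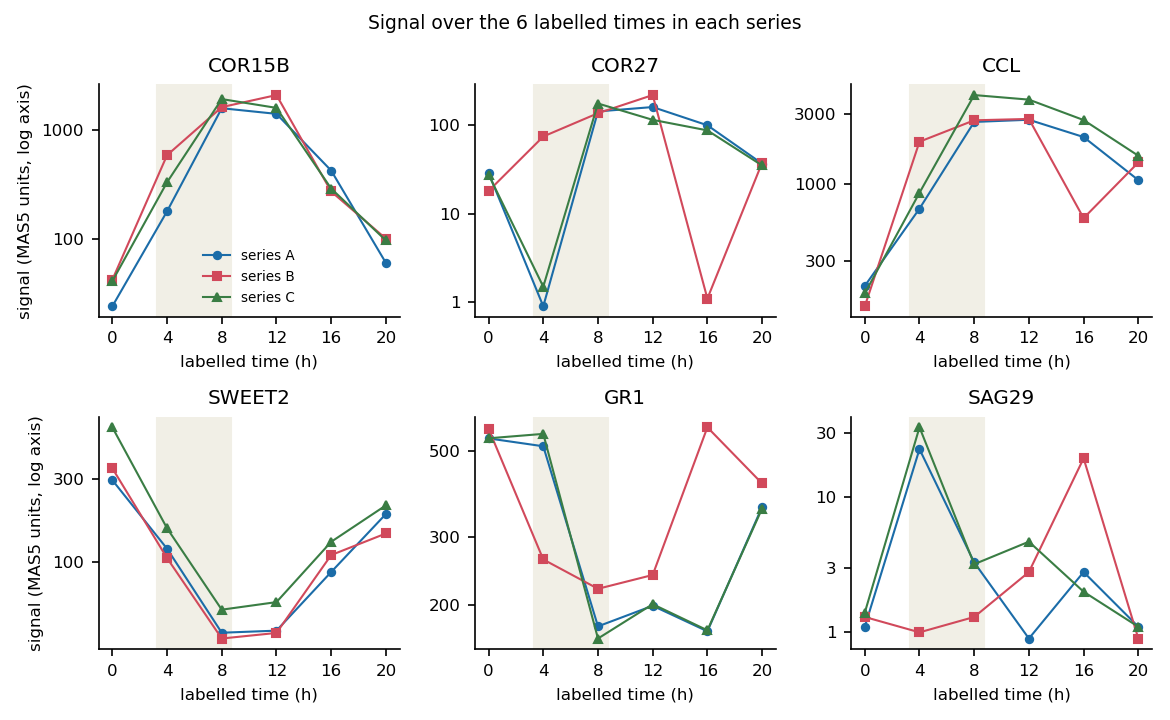
Signal (log axis, a scale of its own in each panel) of 6 genes over the 6 labelled times, with 1 line for each series and the step from 4 h to 8 h shaded. SWEET2 runs alike in all series. COR15B rises from 4 h to 8 h in all series, with series B the highest at 4 h (591.2) and the lowest at 16 h (275.0). In COR27, CCL, GR1 and SAG29 the series B line also departs at 4 h and at 16 h, as in COR27 with 74.8 at 4 h and 1.1 at 16 h.

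Plastid-encoded genes, which the chloroplast transcribes from its own genome, had differences mostly below 0 and few calls. Of 69 measured, 65 had a difference below 0 with all arrays (94.2%, against 58.7% of all probe sets) and 68 without the array labelled 4 h B (98.6%, against 57.5%). The median difference was -0.35 and -0.49 in these fits, against -0.06 over all probe sets in both. By series the median was -0.39 in A, -0.06 in B and -0.56 in C. None was called with all arrays, and 2, rbcL and psbC, were called lower without the array labelled 4 h B (1.05% of all probe sets). In that fit 1 was called with equal array medians and 3 with quantile normalization. The transcripts share 1 genome and are in part made as joint RNAs, so their number is no measure of independent events.

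The gene rbcL, for the large subunit of Rubisco, had 299.3, 200.8 and 588.2 at 4 h and 172.8, 185.8 and 396.7 at 8 h. Its difference was -0.66 ± 0.13 (limma adjusted p = 0.0201) without the array labelled 4 h B and -0.49 (adjusted p = 0.163) with all arrays. All 3 series were lower at 8 h and series C was the brightest at both times. psbC, for an antenna protein of photosystem II, had 812.0, 755.5 and 3068.3 and then 486.0, 785.8 and 1477.2. With all arrays its difference was -0.58 (limma adjusted p = 0.341), and without the array labelled 4 h B it was -0.89 ± 0.20 (adjusted p = 0.0327). The lowest difference in that fit was that of rpoB, a subunit of the plastid RNA polymerase, with -1.87 from dim signals in series A (14.8 and 1.1). At the other end, psaB, atpB and atpE, for a photosystem I core protein and for ATP synthase subunits, gave -0.05, -0.07 and -0.08. psbB, for another antenna protein of photosystem II, gave -1.42 and was not called (adjusted p = 0.123).

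**Figure D5:**
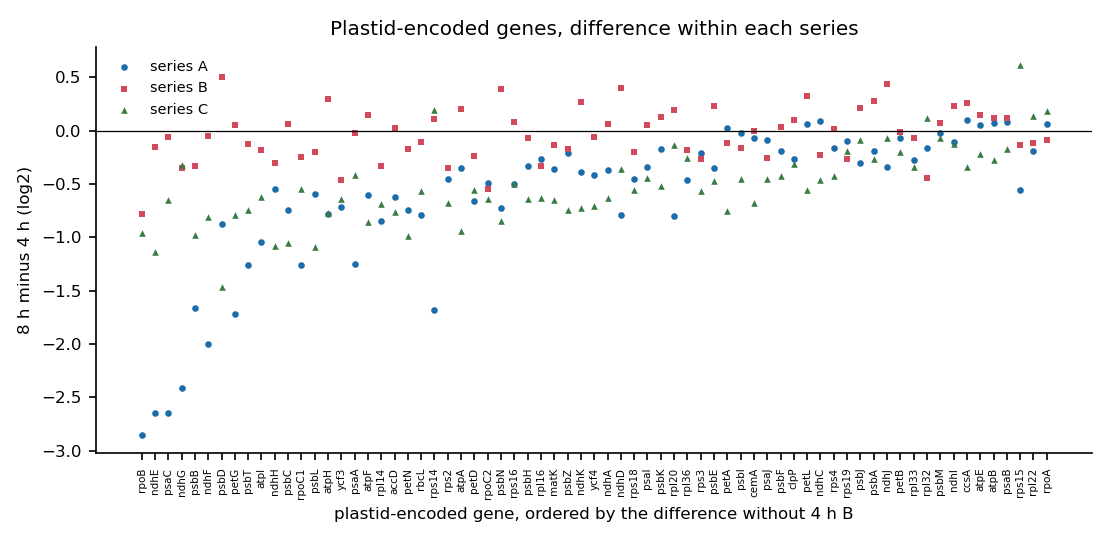
Difference between 8 h and 4 h (log2) within each series for the 69 plastid-encoded genes, ordered by their difference without the array labelled 4 h B. Series A and C lie below 0 for most genes (medians -0.39 and -0.56) and series B around 0 (median -0.06), with the widest spread in series A at the left.

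The few nuclear genes of photosynthesis that were measured were mostly bright and gave no call in either fit. None passed of 3 measured antenna genes (21 on the list) and 7 photosystem and electron transport genes (38 on the list). The same held for 3 Calvin-Benson genes (22 on the list) and 1 photorespiration gene (17 on the list). With 0.787% of all probe sets called with all arrays and 2.18% without the array labelled 4 h B, so few genes may give no call. The rest of each list was not measured. In series A and C alone, the antenna gene LHCB4.3 (-1.13, limma adjusted p = 0.000464) and SBPASE (-0.47, adjusted p = 0.0293) were called lower. So was the photorespiration gene HPR (-0.57, adjusted p = 0.0248), beside 3.04% of all probe sets, and the other measured genes of these lists were not called. SBPASE, a phosphatase of the Calvin-Benson cycle, had 2306.8, 2705.3 and 3486.4 and then 1765.2, 2403.8 and 2363.1 (-0.37 ± 0.11, limma adjusted p = 0.203, and -0.37 without the array labelled 4 h B), lower in all 3 series. LHCB4.2, an antenna protein of photosystem II, had 3680.2, 1122.6 and 5825.8 and then 3920.7, 1778.8 and 3902.7 (0.06, limma adjusted p = 0.988, and -0.75 without the array labelled 4 h B). At these times both series B arrays lay below all others. LHCB4.2 had 2003.8, 3844.4 and 1559.7 at 12 h and 970.4, 4016.4 and 831.7 at 16 h, so there series B was the highest. Of 7 measured genes of chlorophyll synthesis PORB, a light-dependent reductase, had the largest difference, with 1195.1, 1493.1 and 1583.6 and then 3360.8, 1697.7 and 3467.3 (0.94 ± 0.34, adjusted p = 0.294, and 0.92 without that array). Its groups did not overlap, yet series B moved far less than A and C. In series A and C alone PORB was called higher (1.31, limma adjusted p = 0.000833). At 12 h PORB had 1376.3, 3611.4 and 1283.2, so series B was the highest there and the lowest at 8 h, and the cause was not tested.

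Growth and hormone genes also gave few calls, beside 0.787% of all probe sets with all arrays and 2.18% without the array labelled 4 h B. At these shares a list of such size may hold 1 call or none, so the counts below say little about a family. EXGT-A3, also known as XTH27 and an enzyme that cuts and rejoins xyloglucan in cell walls, was 1 of 10 measured in its family to be called. It fell from 450.3, 557.6 and 217.8 to 273.4, 194.5 and 150.4 (-0.92 ± 0.18, limma adjusted p = 0.0337), with an adjusted p of 0.0514 without the array labelled 4 h B and 0.503 with no block for the series. None of 19 expansins and 19 auxin genes passed. Among 51 UDP-glycosyltransferases, UGT74D1 was called in both fits and UGT85A5 without the array labelled 4 h B, and of 22 cytochromes P450 the dim gene CYP51G2 was called lower with all arrays. No member passed in either fit among 7 heat shock and chaperone genes, 19 redox genes, 23 bZIP, 7 WRKY and 1 NAC factors, 13 glutathione transferases, 9 U-box ligases, 4 genes of sugar starvation, 3 of sulphur assimilation and 3 reference genes. AKINBETA1, a subunit of the starvation kinase SnRK1, had 79.9, 127.9 and 93.8 and then 76.3, 45.7 and 95.1 (-0.50, adjusted p = 0.569, and -0.14 without the array labelled 4 h B), lower in series B and level in A and C. The morning clock, photoperiod, nitrogen and aquaporin lists had no member named by the annotation used, so they were not analysed here, and a list's measured genes are those it names.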

How the data were processed

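Labelled cRNA was measured on Affymetrix arrays for Arabidopsis. The deposited values are intensities on a linear scale, made with MAS5 per the submitters' processing notes, whose version is not stated. On each array the mean of these values after trimming 2% at each end was about 100. Detection calls were not used. No value was rescaled here, since array medians spanned 0.3 on the log2 scale. Of 22810 probe sets, 64 controls were left out, and the 6 arrays held 163 values at 0.

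Deposited intensities were analysed as log2(value + 1.1), 1.1 being the 10th percentile of all values, so log2 differences understate changes of dim probe sets. limma 3.58.1 in R 4.3.3 was fitted to all 18 arrays, with 6 times and the series as a block (10 residual degrees of freedom), eBayes moderation that follows mean brightness and p-values adjusted by Benjamini and Hochberg over 22746 probe sets, and checked on simulated data. The series letter pairs arrays because the courses were grown separately. Deviations at 4 h and 8 h correlated by 0.272, 0.367 and 0.391 within series A, B and C. Groups came from the titles. Alternatives covered normalization, offset, dim probe sets, variance trend, block, a minimum difference and the arrays used.

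Genes came from the platform annotation, with symbols from RefSeq (TAIR10.1) for 13436 of 13513 probe sets with 1 gene. Another 503 matched several genes and 8730 are unnamed here. Named genes were the 12 largest calls in each direction, in each fit, with 1 gene, the same direction in the series used and a mean of at least 37.1 (the median probe set) at the higher time, the 4 largest in each direction against series B, and list members. Other genes with a symbol were named after their values were seen. The comparison, the lists and the rule were chosen with earlier results of these data known. No genome of the files' build was used, so no sequence or coordinate is given.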

Additional observations from a re-analysis of the deposited data

How the results depend on the processing

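The count of 179 calls by limma was 179 with quantile normalization, 164 with equal array medians, 180 with an offset of 7.1, 130 with no offset, 216 without dim probe sets and 186 with the series as a random block. It was 65 with no variance trend, 89 with no replicate block, 19 with only the 6 arrays of 4 h and 8 h (2 residual degrees of freedom), 102 with a log2 difference of at least 1 and 863 without the arrays 4 h B and 16 h B. Leaving out 1 series or array gave 0 to 1271 calls, with 0 without series A or C and 1271 without series B. The cause of these shifts was not tested. Of the named genes called with all arrays, AT2G04795, AT1G17360, UGT74D1, TRY, PIFI, LYC, SERPIN1, TUA1, RD2, WLIM1, WLIM2a, MTP11, EXGT-A3, CYP51G2 and SFP1 had an adjusted p above 0.05 with no replicate block, as low as 0.0501 for UGT74D1 and as high as 0.725 for CYP51G2. With equal array medians EXGT-A3, SFP1, TUA1 and CYP51G2 had an adjusted p of 0.0518, 0.0505, 0.115 and 0.0551, and with quantile normalization TUA1, RD2 and CYP51G2 of 0.0508, 0.0575 and 0.0732. For the fit without the array labelled 4 h B, which leaves 2 arrays at 4 h, settings chosen after seeing the data gave 535 calls with quantile normalization, 489 with equal array medians and 208 with no replicate block, against 495. Of the genes called in either fit, 87 were followed through the settings, namely those with a symbol and those taken by the naming rules. None of the 87 changed direction in a setting that tested it, and the setting without dim probe sets left out the dim ones among them. The other calls were not followed in this way. Genes that were not called could, as LHCB4.2 and APL3 did without the array labelled 4 h B. Signals near the floor, as in COR27, SAG29 and AT2G15020, give log2 differences set by the offset.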
